A study of Mus musculus with 12 samples.

Results

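ATP-binding cassette (ABC) transporters are described here in mouse marrow mesenchymal stem cells, leaving out the cholesterol exporters Abca1 and Abcg1. Members were the gene symbols made of Abc, a subfamily letter from a to g and a number, with at least 10 reads summed over 12 libraries. Of 23955 symbols, 50 matched, 48 remained without Abca1 and Abcg1, and 46 reached the minimum. Apart from the symbol, members were chosen by that sum. Just outside lay Abcc8 with 3 reads and Abcc6 with 4, and just inside lay Abcg3 and Abcg4 with 13 each. The 5 neighbouring genes Abca5, Abca6, Abca8a, Abca8b and Abca9 are described apart from the other 41.

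The donors were female C57BL/6 mice, and per the labels a commercial stock of the cells was used at passages 9 to 10. Each group had 4 libraries, sampled on day 14 of adipogenic culture. The TBT group received 50 nM tributyltin, an organotin that binds retinoid X receptors and PPARγ. The ROSI group received 500 nM rosiglitazone, a drug that activates PPARγ, the main receptor of fat-cell formation, and the DMSO group received 0.1% of the vehicle alone. All cultures, the DMSO ones included, also received isobutylmethylxanthine at 0.5 mM, insulin at 5 ug/mL and dexamethasone at 1 uM, so every contrast is between differentiating cultures. Nothing in the labels ties the 4 libraries of a group to separate cultures or mice. The p-values therefore measure the spread between libraries, which could be technical. Library totals ran from 4027152 to 7474654 reads. TBT replicate 4 stood apart. Across genes it correlated with the other TBT libraries at a mean r of 0.953, with ROSI at 0.954 and with DMSO at 0.961. Ribosomal RNA precursor (Rn45s) took 6.85% of its reads, against 0.399% to 0.670% in TBT replicates 1 to 3. Most defining marrow stroma genes were present, among them Pdgfra and Cxcl12, but Eng had 21 reads in all libraries together. The leukocyte gene Ptprc had 39 reads in all libraries together, and the endothelial gene Pecam1 had 24.

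ABC transporters use the binding and splitting of ATP to move lipids, peptides, metabolites or drugs across membranes. Subfamily A moves lipids, subfamily B holds drug exporters and mitochondrial transporters, subfamily C exports conjugates and nucleotides, subfamily D works in peroxisomes and lysosomes, and subfamily G holds sterol and drug exporters. Subfamilies E and F keep the ATPase domains but cross no membrane and act at the ribosome. Fat cells store sterols and fatty acids, and lipid transport is the role for which the family is best known in this tissue.

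The 5 genes of the Abca cluster lie on mouse chromosome 11 within 405.5 kb, from 109932190 to 110337716 in the GRCm38 annotation, all on the minus strand (the authors' own build was mm9, so these positions come from the reference annotation). In rising coordinate their order is Abca8b, Abca8a, Abca9, Abca6 and Abca5. Abca8a, Abca9 and Abca6 form the middle, and Abca8b and Abca5 the edges. The 4 promoters below are shown because the middle and edge genes differed in level after treatment. Each runs from 250 bases before to 50 bases after the gene's start, 5′ to 3′ on the gene's strand, from RefSeq on GRCm38.p6. Capitals mark CG pairs.
Abca8b: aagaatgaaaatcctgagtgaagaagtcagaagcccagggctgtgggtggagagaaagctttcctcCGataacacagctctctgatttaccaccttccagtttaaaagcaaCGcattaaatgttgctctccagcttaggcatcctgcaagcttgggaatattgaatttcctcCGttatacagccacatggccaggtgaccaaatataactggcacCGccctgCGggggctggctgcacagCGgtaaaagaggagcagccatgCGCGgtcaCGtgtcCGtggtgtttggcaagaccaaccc
Abca8a: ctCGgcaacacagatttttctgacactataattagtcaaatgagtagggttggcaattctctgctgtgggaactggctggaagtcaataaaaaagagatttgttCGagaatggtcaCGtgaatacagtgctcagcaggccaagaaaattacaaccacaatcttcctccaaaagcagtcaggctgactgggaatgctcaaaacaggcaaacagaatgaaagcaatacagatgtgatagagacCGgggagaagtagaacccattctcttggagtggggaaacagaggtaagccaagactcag
Abca9: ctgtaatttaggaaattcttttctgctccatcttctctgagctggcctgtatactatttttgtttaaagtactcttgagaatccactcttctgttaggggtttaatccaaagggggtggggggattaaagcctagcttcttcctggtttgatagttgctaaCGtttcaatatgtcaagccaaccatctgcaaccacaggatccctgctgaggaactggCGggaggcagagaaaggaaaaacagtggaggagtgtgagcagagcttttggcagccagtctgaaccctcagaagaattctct
Abca5: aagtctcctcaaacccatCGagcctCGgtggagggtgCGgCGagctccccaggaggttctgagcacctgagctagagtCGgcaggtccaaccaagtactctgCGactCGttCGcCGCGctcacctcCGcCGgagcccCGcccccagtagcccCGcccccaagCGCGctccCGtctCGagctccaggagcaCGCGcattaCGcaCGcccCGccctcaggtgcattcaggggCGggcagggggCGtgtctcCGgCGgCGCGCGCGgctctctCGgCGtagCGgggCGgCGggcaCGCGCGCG
They span chr11:109995796-109996095, chr11:110095888-110096187, chr11:110168104-110168403 and chr11:110337667-110337966 in that order. No promoter is shown for Abca6.

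The promoter of Abca5 held 40 CG pairs, as many as or more than 96.5% of the 32851 promoters in the RefSeq table, and its GC content was 72.3%. The other 3 held fewer: 10 in Abca8b, 4 in Abca8a and 2 in Abca9, against a median of 7 over all promoters. At 2 CG pairs, Abca9 ranked at 23.3% of promoters, and Abca8a ranked at 38%. GC content was 51.3% in Abca8b, 44.3% in Abca8a and 45.3% in Abca9, against a median of 52.7%. Both strands were searched for 5 motifs. The TATA box, written TATAAA, occurred in 13.6% of all promoters and the CCAAT box in 37.4%. The nuclear receptor core site AGGTCA occurred in 16.3%, its direct repeat with 1 base between, written AGGTCANAGGTCA, in 0.0396%, and the C/EBP motif TTGCNNAA in 10.8%. Each direct repeat holds the core site, so those searches overlap. The 4 windows held a single match, 1 TTGCNNAA in Abca8b. These are descriptions of letters in a window, and binding of any factor was not measured.

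The middle genes fell in ROSI libraries to 0.237 of the DMSO level or lower, while neither edge gene passed the test. Like the edge genes, Abca8a, Abca9 and Abca6 belong to subfamily A, which moves lipids. ABCA8 is tied to cholesterol efflux, and in human macrophages ABCA6 and ABCA9 respond to cholesterol load. Levels are in CPM, the authors''' counts scaled by TMM-adjusted library size, listed for replicates 1 to 4. Abca9 had 80.4, 64.5, 63.1 and 66.8 CPM in TBT libraries, 16.8, 18.2, 20.2 and 14.6 in ROSI libraries and 71.5, 69.7, 77.4 and 77.8 in DMSO libraries. For Abca6 the levels were 32, 26.1, 21.2 and 36.1 CPM with TBT, 8.52, 5.37, 10.7 and 5.02 with ROSI and 41.3, 42.1, 33.3 and 36.3 with DMSO. The TBT libraries held 24.3, 20.8, 18.8 and 27.6 CPM of Abca8a, the ROSI libraries 4.51, 8.06, 6.47 and 4.81 and the DMSO libraries 26.8, 25.3, 26.8 and 32.7. For each of the 3 genes, every ROSI library lay below every TBT and DMSO library, and the TBT and DMSO libraries overlapped. Among all tested genes, 28.3% did not overlap between ROSI and DMSO, and 20.7% did not overlap between TBT and ROSI.

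Relative to DMSO, the log2 fold change with ROSI was -2.35 ± 0.23 (SE) for Abca6 (edgeR quasi-likelihood test, adjusted p = 1.9e-06, Benjamini-Hochberg over all tested genes). It was -2.20 ± 0.20 for Abca8a (adjusted p = 1.0e-06) and -2.08 ± 0.14 for Abca9 (adjusted p = 4.9e-08). In linear terms Abca6 was 5.08-fold, Abca8a 4.58-fold and Abca9 4.22-fold lower in ROSI than in DMSO. TBT differed from ROSI by 1.94 ± 0.23 for Abca6, 1.91 ± 0.20 for Abca8a and 1.97 ± 0.14 for Abca9, all past the threshold (adjusted p = 1.8e-05, 4.7e-06 and 1.6e-07). Set against DMSO, TBT gave -0.40 ± 0.21, -0.29 ± 0.18 and -0.11 ± 0.13 for the same genes, with adjusted p of 0.19, 0.27 and 0.58. The 95% intervals of these TBT differences were -0.87 to 0.06, -0.69 to 0.11 and -0.40 to 0.18. Over all 12323 tested genes, 15.2% passed in TBT against DMSO, 22.6% in ROSI against DMSO and 23.9% in TBT against ROSI. All 3 ROSI calls against DMSO held in each of 22 alternatives. The comparisons share groups and are not independent of each other.

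The edge genes were closer between treatments. Abca5 encodes a transporter of lysosomal membranes, and mouse Abca8b has been tied to high-density lipoprotein levels. Abca8b had 49.5, 65.2, 39.8 and 65 CPM in TBT libraries, 35.4, 57.4, 45 and 39.9 in ROSI libraries and 60.6, 55.9, 55.9 and 59.9 in DMSO libraries. For Abca5 the levels were 62.4, 58.5, 64.8 and 63.5 CPM with TBT, 53.9, 45.2, 53.9 and 50.8 with ROSI and 58.9, 59, 51.1 and 50.3 with DMSO. The 3 groups overlapped for Abca8b. For Abca5 every TBT library lay above every ROSI library, while DMSO overlapped both. ROSI against DMSO gave -0.38 ± 0.17 for Abca8b (edgeR adjusted p = 0.12) and -0.10 ± 0.12 for Abca5 (adjusted p = 0.59). Without ROSI replicate 2, the highest ROSI library, Abca8b was at -0.53 with an adjusted p of 0.042. TBT against DMSO gave -0.08 ± 0.17 for Abca8b and 0.19 ± 0.12 for Abca5, with adjusted p of 0.77 and 0.28. TBT against ROSI gave 0.30 ± 0.17 and 0.29 ± 0.12, with adjusted p of 0.21 and 0.079. In TBT against DMSO, edgeR called 0 of the 5 cluster genes, with 0 at an unadjusted p under 0.05 and 0 by DESeq2.

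**Figure D1:**
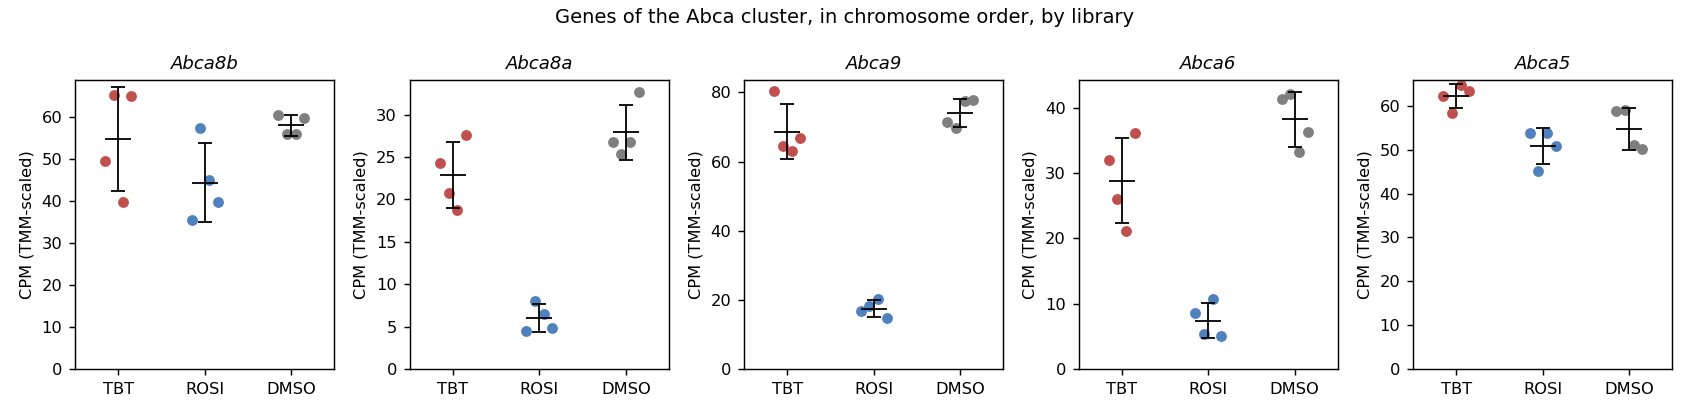
Level of each cluster gene (CPM, TMM-scaled, linear axis from 0) in 4 TBT, 4 ROSI and 4 DMSO libraries, with points for libraries, a wide tick for the mean and whiskers for 1 SD. In the 3 middle panels the ROSI points lie below all others, with means of 5.96 CPM for Abca8a, 17.4 for Abca9 and 7.41 for Abca6.

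The composition of the cluster's reads shifted with these falls. The middle genes made up 47.4% to 55.0% of the cluster's reads in TBT libraries, 21.3% to 27.4% in ROSI libraries and 53.9% to 57.1% in DMSO libraries. The widest exact 95% binomial interval of 1 library, ROSI replicate 1, was 21.2% to 29.2%, which covers counting error only. The summed level of the middle genes was 120 ± 15.9 CPM in TBT, 30.8 ± 5.32 in ROSI and 140 ± 4.72 in DMSO (SD, n = 4). The edge genes summed to 118 ± 11 CPM in TBT, 95.5 ± 6.58 in ROSI and 113 ± 5.72 in DMSO. Per kilobase of merged exons (reference annotation), levels in DMSO ran from 9.21 CPM for Abca9 through 7.83 for Abca8b, 7.09 for Abca6 and 4.79 for Abca5 to 4.45 for Abca8a. With ROSI the order was Abca8b (5.98 CPM per kilobase), Abca5 (4.45), Abca9 (2.17), Abca6 (1.37) and Abca8a (0.951). With TBT it was Abca9 (8.53), Abca8b (7.39), Abca5 (5.45), Abca6 (5.34) and Abca8a (3.65). Differences between genes in these orders were not tested.

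The cluster genes shared little sequence at the read length used. Of the 50-base stretches in their longest transcripts, 2.45% of those of Abca8b and 1.89% of those of Abca8a were also found in another gene, chiefly each other and, for Abca8b, Gm11697. The share was 0.25% for Abca6, 0.21% for Abca9 and 0 for Abca5. The libraries kept no strand, and exons of Abca8b overlap Gm11697 on the other strand, so reads there cannot be assigned. Against DMSO, the neighbours outside the cluster went separate ways. Kcnj2, a potassium channel 1134.0 kb from the cluster's start, fell with ROSI by 1.59 on the log2 scale (adjusted p = 2.2e-06). Map2k6, a kinase next to Abca5, was at -0.09 ± 0.23 with ROSI, and Fam20a at -0.61 ± 0.31, and neither passed the threshold (adjusted p = 0.83 and 0.17). Prkar1a, a regulatory subunit of protein kinase A, rose with TBT by 0.56 ± 0.16 (adjusted p = 0.027) and was at -0.38 ± 0.16 with ROSI (adjusted p = 0.098). The genes 1700012B07Rik and Kcnj16 were too low to test.

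**Figure D2:**
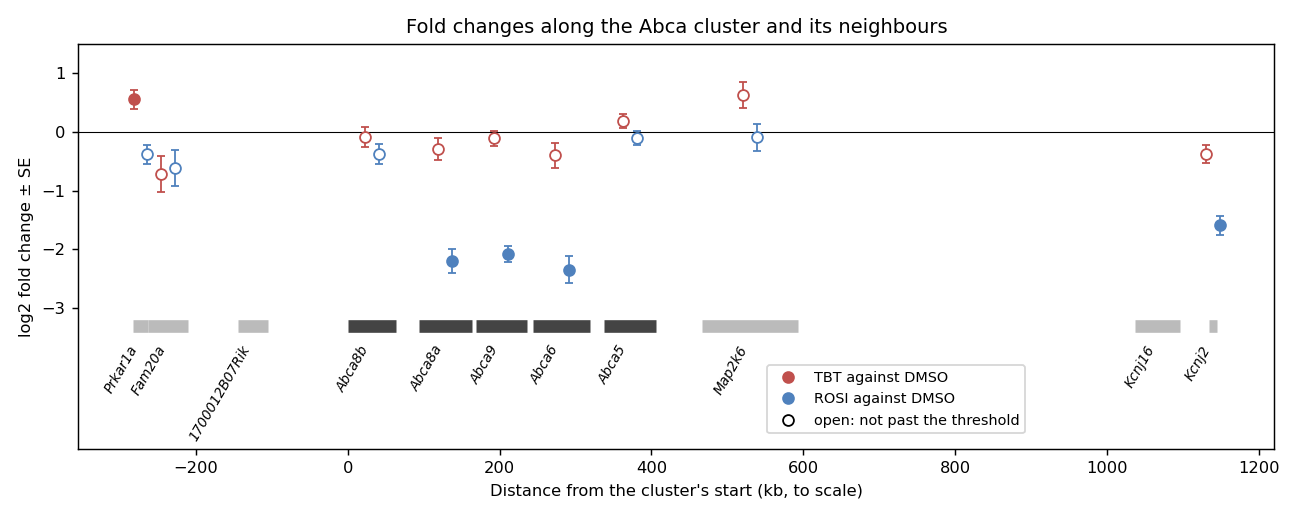
Log2 fold change against DMSO (points with SE whiskers, red for TBT and blue for ROSI, filled where adjusted p is under 0.05) above the gene bodies of the cluster (dark bars) and its neighbours (light bars), with distance in kb to scale. The ROSI points of the 3 middle genes lie at -2.20, -2.08 and -2.35, while those of the edge genes lie at -0.38 and -0.10.

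Markers of cell type also differed between the groups, in part unlike the cluster. The 8 marrow stroma genes summed to 2500 to 3330 CPM in TBT libraries, 1410 to 1610 in ROSI libraries and 3120 to 4130 in DMSO libraries. Of 7 tested, 4 fell with ROSI, where 12.6% of all tested genes were lower. With TBT 2 fell, where 7.03% of all tested genes were lower: Pdgfra at -0.81 ± 0.15 and Ly6a at -0.92 ± 0.28 (edgeR adjusted p = 0.0023 and 0.035). The Ly6a levels in DMSO were 1360, 1310, 579 and 570 CPM and overlapped those in TBT, at 329 to 691. Pdgfrb and Cxcl12 fell with ROSI, at -0.90 ± 0.14 and -0.78 ± 0.14. With TBT they were at -0.19 ± 0.14 and -0.01 ± 0.14 and not called. Thy1, Nt5e and Vcam1 passed with neither ligand. In TBT against DMSO 0 of the 5 cluster genes were called. The 7 adipocyte genes summed to 2220 to 3350 CPM in TBT, 4370 to 5800 in ROSI and 1040 to 2020 in DMSO. Of these 7, 5 rose with ROSI, where 10.0% of all tested genes were higher. With TBT, 3 adipocyte genes rose and 1 fell, where 8.22% of all tested genes were higher and 7.03% lower. The 1 that fell was Adipoq, which encodes adiponectin, at -2.17 ± 0.29 (edgeR adjusted p = 0.00019). Lpl, the lipoprotein lipase gene, made up most of the sum, with means of 2180 CPM in TBT, 3250 in ROSI and 996 in DMSO. The part of these shifts in the fall of the middle genes was not tested. In bulk RNA, fewer cells of a type and less RNA per cell cannot be told apart. The 5 endothelial genes summed to 5.02 to 7.49 CPM in TBT, 2.26 to 4.42 in ROSI and 7.13 to 9.36 in DMSO. The 6 erythroid genes summed to 7.83 to 16.2 CPM in TBT, 11 to 12.6 in ROSI and 12.6 to 24.2 in DMSO. The 6 macrophage genes summed to 18.4 to 33.5 CPM in TBT, 17.9 to 30.1 in ROSI and 23.5 to 26.9 in DMSO. The 6 pericyte and smooth muscle genes summed to 542 to 928 CPM in TBT, 318 to 361 in ROSI and 629 to 777 in DMSO.

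Over the whole family, 27 of 46 members had enough reads to test, and each had libraries past the filter in all 3 groups. TBT against DMSO called 6 of 27 members, 3 higher and 3 lower, or 22.2%, against 15.2% of all 12323 tested genes. ROSI against DMSO called 8, with 3 higher and 5 lower, or 29.6% against 22.6% of all tested genes. TBT against ROSI called 8, with 5 higher and 3 lower, or 29.6% against 23.9%. Outside the cluster the shares were 27.3%, 22.7% and 22.7% of 22 tested members. By direction, 8.22% of all tested genes were higher and 7.03% lower with TBT against DMSO, 10.0% and 12.6% with ROSI against DMSO, and 12.8% and 11.1% with TBT against ROSI. With upper-quartile factors, 748 of the 1891 genes called in TBT against DMSO, or 39.6%, were higher. Over the same 27 members, the TBT against DMSO count was 1 without DMSO replicate 1, 2 without TBT replicate 1, TBT replicate 2, DMSO replicate 2 or DMSO replicate 4, 3 without TBT replicate 3 and 12 without TBT replicate 4, while that of TBT against ROSI was 5 without ROSI replicate 1. The called share of all tested genes moved too. In TBT against DMSO it ran from 8.12% without DMSO replicate 1 to 32.6% without TBT replicate 4. In TBT against ROSI it was 15% without ROSI replicate 1. Of the 27 members, 6 had libraries without overlap in TBT against DMSO, 11 in ROSI against DMSO and 8 in TBT against ROSI. Among all tested genes, 15.7%, 28.3% and 20.7% did not overlap, in that order. The median log2 fold change over the members was -0.11, -0.05 and 0.02, against -0.011, 0.009 and 0.017 over all tested genes. The called shares and medians lay near those of all genes, so the results below are those of single members. Members without overlap were more frequent than among all genes in each comparison, a difference that was not tested.

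**Figure D3:**
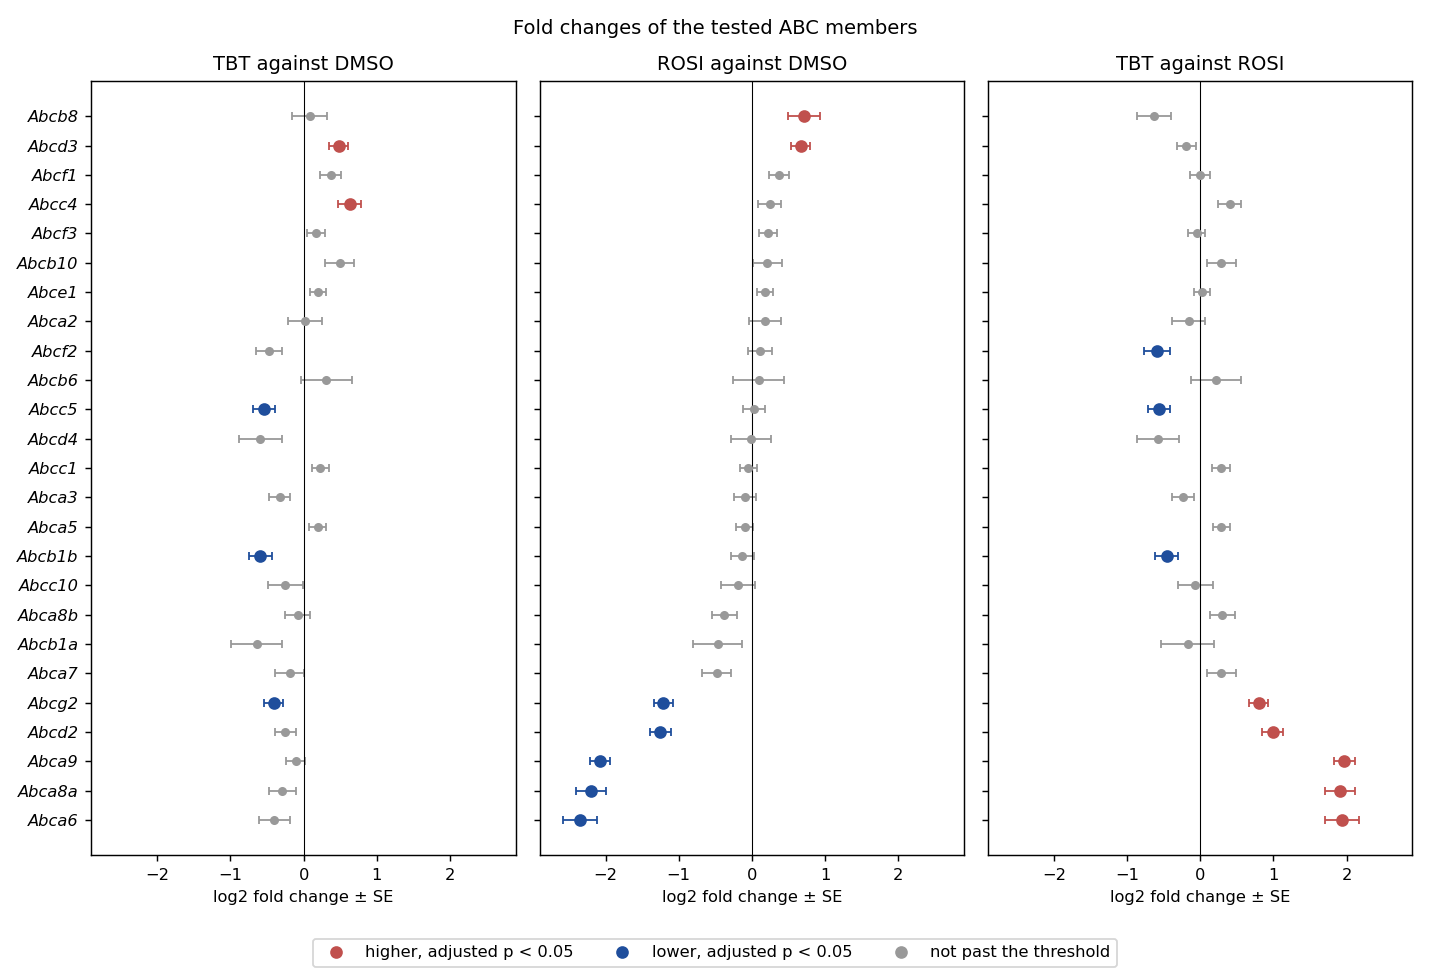
Log2 fold change with SE of 25 of the 27 tested members in TBT against DMSO, ROSI against DMSO and TBT against ROSI, ordered by ROSI against DMSO, with red for higher, blue for lower and grey for members not past an adjusted p of 0.05. Abca6, Abca8a and Abca9 lie at the low end with ROSI and at 1.94, 1.91 and 1.97 in TBT against ROSI.

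Within subfamily D, which brings fatty acids into peroxisomes, ROSI moved 2 members in opposite directions. Abcd2 imports long-chain unsaturated fatty acids and their CoA esters, and Abcd3 (PMP70) imports long-chain, branched and dicarboxylic ones. Abcd2 had 50.4, 48.6, 46 and 49.6 CPM in TBT libraries, 22.1, 19.3, 27.6 and 28.7 in ROSI libraries and 66.1, 55.9, 51.3 and 58.9 in DMSO libraries. For Abcd3 the levels were 144, 170, 130 and 141 CPM with TBT, 158, 168, 163 and 178 with ROSI and 86.5, 99.4, 128 and 105 with DMSO. Abcd2 was lowest in the ROSI libraries, with no overlap with the other groups, and Abcd3 was lowest in the DMSO libraries, again with no overlap. Abcd2 fell with ROSI by 1.25 on the log2 scale (SE 0.14, edgeR adjusted p = 8.3e-06) and was 0.99 ± 0.14 higher in TBT than in ROSI (adjusted p = 0.00013). TBT against DMSO was -0.25 ± 0.14 (adjusted p = 0.22), although the libraries did not overlap. Abcd3 rose with ROSI by 0.67 ± 0.13 (adjusted p = 0.0011) and with TBT by 0.48 ± 0.13 (adjusted p = 0.022). The TBT call for Abcd3 ended in 5 of 22 alternatives, among them those without TBT replicate 2, DMSO replicate 1 or DMSO replicate 2 and a fit of the 2 groups alone, with log2 fold changes of 0.39 or more and adjusted p of up to 0.076 over all alternatives.

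Abcd4, which takes part in the release of vitamin B12 from lysosomes, averaged 3.56 ± 0.88 CPM in TBT, 5.30 ± 1.11 in ROSI and 5.30 ± 1.42 in DMSO, and did not pass in any comparison. Genes of peroxisomal fatty acid oxidation were listed beside subfamily D: with ROSI 8 of 14 tested rose and 0 fell, with a median of 0.62, and with TBT 2 rose and 0 fell, with a median of 0.27. That was 57.1% called with ROSI, against 22.6% of all tested genes. With TBT it was 14.3%, near the 15.2% of all tested genes. Acox2, an oxidase of branched-chain fatty acids, was at 2.62 ± 0.37 with ROSI (called) and 0.82 ± 0.42 with TBT (adjusted p = 0.19). In TBT against ROSI, 5 of the 14 were lower and 0 higher, or 35.7% called against 23.9% of all tested genes. Abcd2 thus had the opposite sign to the called genes of that list with ROSI, which is a comparison of single values and not a test.

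In subfamily G only Abcg2 was tested. It encodes the breast cancer resistance protein, an exporter of drugs, urate and porphyrins that also marks stem cells that expel dyes. The TBT libraries held 63.4, 60.8, 58.4 and 70.5 CPM of Abcg2, the ROSI libraries 38.4, 32.9, 36.3 and 38.3 and the DMSO libraries 98.4, 87.3, 70 and 81.4. The ROSI libraries lay below all others, and 1 TBT library, replicate 4, overlapped the lowest DMSO library. Abcg2 fell with ROSI by 1.21 on the log2 scale (SE 0.13, edgeR adjusted p = 4.3e-06), a 2.31-fold difference, and was 0.80 ± 0.13 higher in TBT than in ROSI (adjusted p = 0.00037). TBT against DMSO was at -0.41 ± 0.13, 1.33-fold lower (adjusted p = 0.038). That TBT call ended in 10 of 22 alternatives, among them 7 of the 12 fits that left out 1 library (TBT replicates 1, 2 and 3, ROSI replicate 1, and DMSO replicates 1, 2 and 4) and the fits without a filter and of the 2 groups alone. Over all alternatives its log2 fold change ran from -0.54 to -0.30, with adjusted p of up to 0.13. The ROSI calls of Abcg2 and Abcd2 held in all 22 alternatives. Of the 7 tested stroma markers, 4 also fell with ROSI, where 12.6% of all tested genes were lower. Nt5e and Vcam1 were at 0.18 and 0.26 with ROSI and not called. The part of stroma markers in the falls of Abcg2 and Abcd2 was not tested.

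Among the drug exporters of subfamily B, Abcb1b was lower with TBT. Abcb1a and Abcb1b are the mouse genes for P-glycoprotein. Abcb1b had 12.2, 13.7, 11.8 and 10.7 CPM in TBT libraries, 15, 20.4, 15.5 and 15.4 in ROSI libraries and 18.3, 16.4, 18.6 and 19.3 in DMSO libraries. For Abcb1a the levels were 3.22, 2.7, 2.78 and 0.652 CPM with TBT, 2.26, 3.16, 2.72 and 2.41 with ROSI and 3.8, 3.28, 3.73 and 3.95 with DMSO. Every TBT library lay below every ROSI and DMSO library for Abcb1b, and ROSI replicate 2 lay above the other ROSI libraries. For Abcb1a the DMSO libraries lay above all others. Abcb1b was at -0.59 ± 0.16 in TBT against DMSO (edgeR adjusted p = 0.022) and at -0.13 ± 0.16 in ROSI against DMSO (adjusted p = 0.63). The TBT call ended without TBT replicate 1 or 3 or DMSO replicate 1 or 4, with adjusted p of up to 0.055. TBT against ROSI was at -0.46 ± 0.16 (adjusted p = 0.047), a call lost in 15 of 22 alternatives, among them every fit that left out 1 library except that without TBT replicate 2, with adjusted p of up to 0.17. Abcb1a was at -0.64 ± 0.35 with TBT and -0.47 ± 0.34 with ROSI against DMSO, with adjusted p of 0.21 and 0.36. Of the 50-base stretches in their longest transcripts, 18.63% of those of Abcb1a and 19.64% of those of Abcb1b were shared, mostly with each other, so the split between them is uncertain.

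Among the mitochondrial transporters of subfamily B, Abcb8 was higher with ROSI. Abcb8 has been tied to mitochondrial iron export. The TBT libraries held 6.08, 5.4, 7.49 and 4.13 CPM of Abcb8, the ROSI libraries 7.27, 9.64, 10.7 and 7.82 and the DMSO libraries 4.51, 5.62, 6.22 and 5.37. For Abcb8 the ROSI libraries lay above the DMSO libraries, and TBT overlapped both. Abcb8 was at 0.71 ± 0.22 in ROSI against DMSO (edgeR adjusted p = 0.030), and it no longer passed without ROSI replicate 2 or 3 or DMSO replicate 1, 2 or 4 (adjusted p up to 0.093). TBT against ROSI left Abcb8 at -0.63 ± 0.23 (adjusted p = 0.051), which passed in 6 of 22 alternatives, 2 of them without TBT replicate 3 (-0.80, 0.033) or without ROSI replicate 4 (-0.71, 0.049).

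Abcb10, tied to heme synthesis, averaged 26.0 ± 8.65 CPM in TBT, 21.3 ± 2.49 in ROSI and 18.5 ± 1.37 in DMSO. At 0.49 ± 0.20 in TBT against DMSO it missed the threshold (adjusted p = 0.096), and it passed without TBT replicate 4 (0.66, 0.0086) and with GC-corrected offsets (0.66, 0.045). Abcb6, tied to porphyrin transport, averaged 5.56 ± 1.73 CPM in TBT, 4.81 ± 1.91 in ROSI and 4.59 ± 1.67 in DMSO. Its longest transcript shares 66.77% of its 50-base stretches with the overlapping Gm29253, so its level is uncertain, and Abcb10 overlaps Gm45890 on the other strand. Of 17 heme and iron-sulfur genes listed beside these transporters, edgeR called 0 in TBT against DMSO, with 6 at an unadjusted p under 0.05 and 2 called by DESeq2. ROSI against DMSO gave 2 higher and 1 lower: the chaperone Hspa9 at 1.30 ± 0.17, the heme enzyme Cpox at 0.96 ± 0.19 and the scaffold Iscu at -0.56 ± 0.14. In TBT against ROSI 3 of the 17 were lower, Hspa9 at -0.87 ± 0.16 among them. The list's called share was 17.6% in both comparisons with ROSI, below the 22.6% (against DMSO) and 23.9% (TBT against ROSI) of all tested genes.

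In subfamily C, TBT moved 2 exporters of cyclic nucleotides in opposite directions. Abcc4 exports cyclic AMP and prostaglandins, and Abcc5 exports cyclic GMP and glutamate conjugates. For Abcc4 the levels were 100, 112, 99 and 63.1 CPM with TBT, 62.2, 75, 71.5 and 75.6 with ROSI and 66.8, 50.5, 57.1 and 67.3 with DMSO. Abcc5 had 27.9, 30.3, 24 and 29.4 CPM in TBT libraries, 49.4, 43.1, 40.1 and 33.3 in ROSI libraries and 41.6, 33, 41 and 45.8 in DMSO libraries. TBT replicates 1 to 3 lay above all other libraries for Abcc4, while TBT replicate 4 lay within the DMSO range. For Abcc5 the TBT libraries lay below all ROSI and DMSO libraries. Abcc4 was at 0.63 ± 0.16 in TBT against DMSO (edgeR adjusted p = 0.016), and without TBT replicate 2 or DMSO replicate 2 the call ended (adjusted p up to 0.055). TBT against ROSI was at 0.40 ± 0.16 (adjusted p = 0.079), or 0.55 without TBT replicate 4 (adjusted p = 0.0025). Abcc5 was at -0.54 ± 0.15 in TBT against DMSO (adjusted p = 0.025) and -0.57 ± 0.15 in TBT against ROSI (adjusted p = 0.012). The first of these calls ended in 5 of 22 alternatives, 4 of them without TBT replicate 1 or 3 or DMSO replicate 1 or 4 (adjusted p up to 0.075), and the second without ROSI replicate 1 (0.054). ROSI against DMSO was at 0.24 ± 0.16 for Abcc4 and 0.03 ± 0.15 for Abcc5, with adjusted p of 0.34 and 0.91.

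Abcc1, the multidrug resistance protein that exports glutathione conjugates, averaged 92.0 ± 10.9 CPM in TBT, 75.6 ± 5.78 in ROSI and 78.3 ± 6.63 in DMSO. It was at 0.23 ± 0.12 in TBT against DMSO (adjusted p = 0.20) and 0.28 ± 0.12 in TBT against ROSI (adjusted p = 0.097). Without TBT replicate 4 both passed, at 0.31 (adjusted p = 0.049) and 0.36 (0.022). Abcc10, a drug exporter, averaged 8.19 ± 2.83 CPM in TBT, 8.52 ± 1.63 in ROSI and 9.77 ± 1.17 in DMSO. Among 15 tested genes of glutathione supply and conjugation, TBT against DMSO called 1 higher and 1 lower, ROSI against DMSO 2 higher and 1 lower, and TBT against ROSI 3 higher and 2 lower. In that order these were 13.3%, 20% and 33.3%, against 15.2%, 22.6% and 23.9% of all tested genes. Slc7a11, which imports cystine for glutathione synthesis, was at 1.85 ± 0.31 with ROSI and at -2.28 ± 0.31 in TBT against ROSI. Mgst1, a membrane-bound glutathione transferase, was at 1.05 ± 0.14 with ROSI.

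Subfamilies E and F, which act in translation, held the member with the highest level per kilobase in all 3 groups. Abce1, which recycles ribosomes, averaged 226 ± 20.5 CPM in TBT, 223 ± 15.7 in ROSI and 197 ± 10.2 in DMSO. Per kilobase that was 37.7 CPM in TBT, 37.1 in ROSI and 32.8 in DMSO. It was at 0.20 ± 0.11 in TBT against DMSO and 0.18 ± 0.11 in ROSI against DMSO, with adjusted p of 0.23 and 0.29. For Abcf2 the levels were 29, 34, 30.6 and 52.8 CPM with TBT, 60.4, 65.1, 47.6 and 46.9 with ROSI and 51.8, 47.3, 51.7 and 52.2 with DMSO. Abcf2 is an ATPase of subfamily F whose role is less well described. TBT replicate 4 lay with the ROSI and DMSO libraries, and TBT replicates 1 to 3 lay below them. Abcf2 was at -0.59 ± 0.18 in TBT against ROSI (edgeR adjusted p = 0.024) and -0.47 ± 0.18 in TBT against DMSO (adjusted p = 0.077). The first value lost its call without TBT replicate 1, 2 or 3 or ROSI replicate 1 or 2 (adjusted p up to 0.088), and the second passed without TBT replicate 4, at -0.69 (0.0016).

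Abcf1, which binds the initiation factor eIF2, averaged 66.0 ± 11.5 CPM in TBT, 66.0 ± 3.65 in ROSI and 50.9 ± 6.17 in DMSO. Both ligands set it 0.37 ± 0.14 above DMSO, with adjusted p of 0.081 for TBT and 0.069 for ROSI. Without TBT replicate 4 both passed, at 0.50 for TBT (0.0054) and 0.37 for ROSI (0.021), and with GC-corrected offsets TBT was at 0.58 (0.024). The ROSI value also passed without DMSO replicate 3 (0.46, 0.042), with DESeq2 (0.046) and in a fit of the 2 groups alone (0.031). Abcf3 averaged 37.4 ± 3.63 CPM in TBT, 38.7 ± 1.42 in ROSI and 33.2 ± 2.67 in DMSO. Among 9 genes of initiation and ribosome recycling, TBT against DMSO called 2 higher and 0 lower, ROSI against DMSO 1 higher and 1 lower, and TBT against ROSI 2 higher and 1 lower. Called shares were thus 22.2%, 22.2% and 33.3%, against 15.2%, 22.6% and 23.9% of all tested genes.

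**Figure D4:**
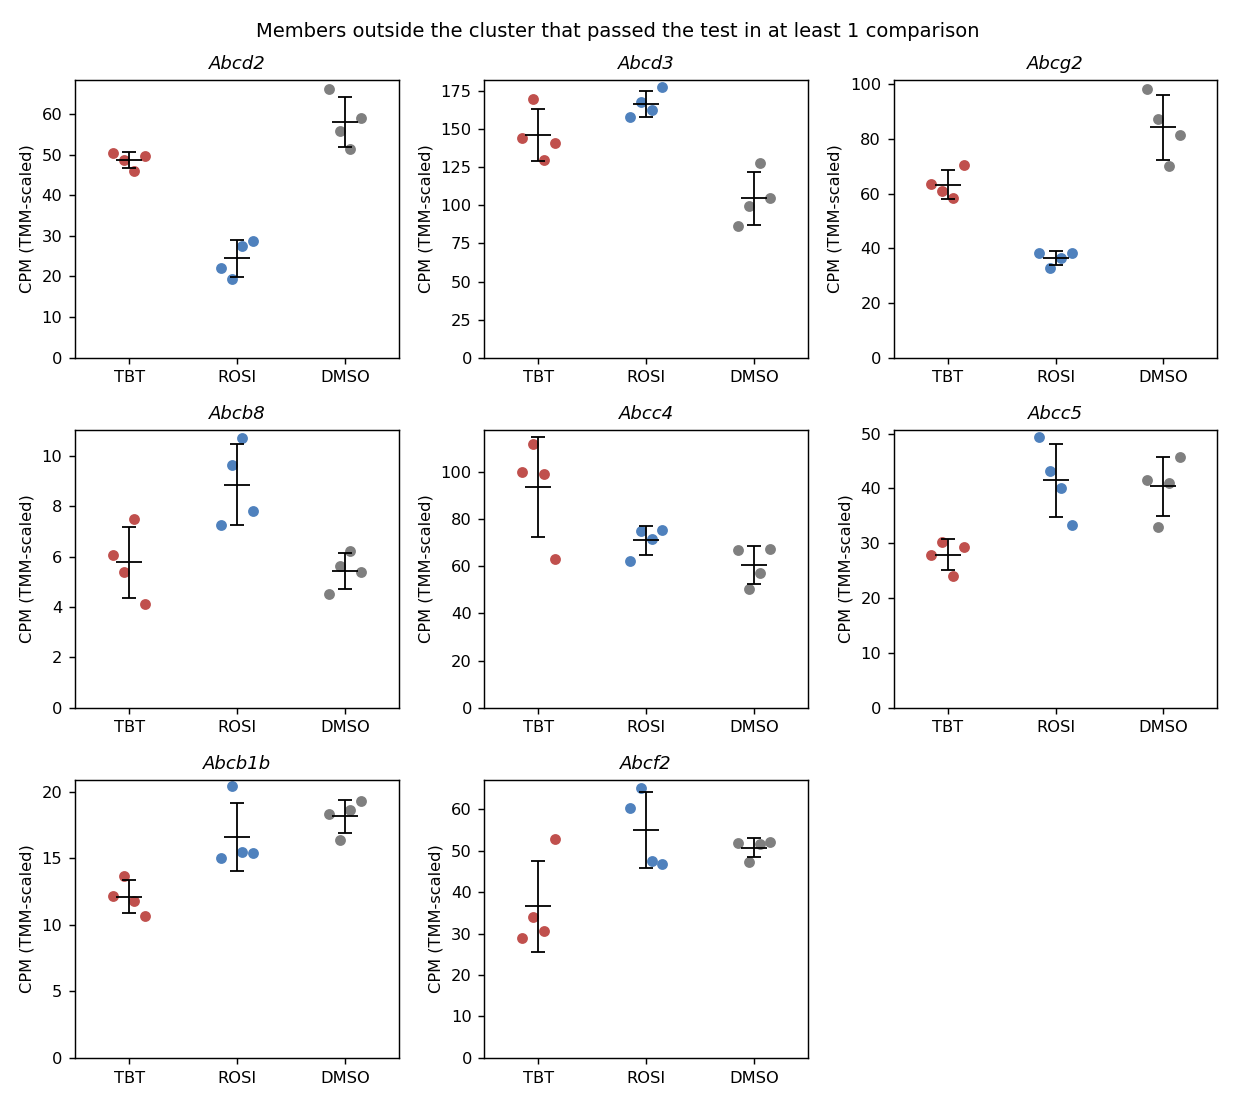
Level (CPM, TMM-scaled, linear axes from 0) of 8 members outside the cluster that passed the test in at least 1 comparison, in 4 TBT, 4 ROSI and 4 DMSO libraries, with points for libraries, a wide tick for the mean and whiskers for 1 SD. Abcd2 and Abcg2 are lowest with ROSI, at means of 24.4 and 36.5 CPM, and Abcc5 and Abcb1b are lowest with TBT, at 27.9 and 12.1 CPM.

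Outside the cluster, 3 subfamily A members were tested and edgeR called 0 in each comparison. At an unadjusted p under 0.05 there were 1 in TBT against DMSO, 1 in ROSI against DMSO and 0 in TBT against ROSI, and DESeq2 called 0 throughout. Abca2, a lipid transporter of lysosomes and myelin-forming cells, averaged 10.7 ± 2.91 CPM in TBT, 12.0 ± 2.76 in ROSI and 10.5 ± 1.49 in DMSO. Abca3, known for lung surfactant, averaged 32.8 ± 6.07 CPM in TBT, 38.5 ± 1.78 in ROSI and 41.3 ± 6.97 in DMSO. It was at -0.33 ± 0.15 in TBT against DMSO (adjusted p = 0.15), or -0.44 without TBT replicate 4 (adjusted p = 0.030). Its exons overlap the antisense D330041H03Rik. Abca7, a phospholipid transporter with a part in phagocytosis, averaged 13 ± 2.1 CPM in TBT, 10.8 ± 2.58 in ROSI and 14.9 ± 1.62 in DMSO, and was at -0.48 ± 0.20 in ROSI against DMSO (adjusted p = 0.093). With GC-corrected offsets Abca7 was at 0.58 in TBT against ROSI (adjusted p = 0.036), against 0.29 without them.

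Across the members not called, log2 fold changes ran from -0.64 (Abcb1a) to 0.49 (Abcb10) over 21 members in TBT against DMSO. Over the 19 not called in ROSI against DMSO they ran from -0.48 (Abca7) to 0.37 (Abcf1), and over the 19 not called in TBT against ROSI from -0.63 (Abcb8) to 0.40 (Abcc4). Missing the threshold does not show that these members were alike in the groups. Without TBT replicate 4, 12 of the 27 members passed in TBT against DMSO, where 6 had passed with it. Among those added were Abca3, Abcb10, Abcc1, Abcf1 and Abcf2, and 32.6% of all genes tested in that fit passed. Abca12 and Abca13 also entered that fit and were called lower, but they reached the filter's level in 3 DMSO libraries and in 0 TBT libraries, so that direction was fixed by the filter.

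The 19 untested members had at most 110 reads each over the 12 libraries, the highest being Abcc2. Many are known from other organs: Abcb4, Abcb11 and Abcc2 from bile formation, Abcg5 and Abcg8 from sterol export in liver and gut, Abca4 from the retina and Abca12 from skin. Their summed level was 9.63 ± 3.00 CPM in TBT, 6.15 ± 1.07 in ROSI and 19.5 ± 4.99 in DMSO (SD, n = 4). By reads scaled for depth, 15 of the 19 were highest in DMSO, 15 were lower in TBT than in DMSO and 17 were lower in ROSI than in DMSO. Each count includes Abca15, Abcb5, Abcg3 and Abcg4, which reached the minimum of 10 reads only with their DMSO reads. Their direction was favoured by that minimum. Reads on 1504 sensory receptor symbols, genes silent in most tissues, moved with the summed level of the untested members. They made up 121 to 209 CPM in TBT libraries, 63.4 to 73.4 in ROSI libraries and 290 to 750 in DMSO libraries. The part of such reads in the levels of the untested members was not tested. Counts by direction were not taken over the other untested genes, so the lean to DMSO is not shown to be particular to ABC members. In the fit without a filter, 37.5% of all genes called in ROSI against DMSO were higher.

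Abca12 had 7 reads in TBT, 4 in ROSI and 48 in DMSO, and Abca13 had 13 in TBT, 5 in ROSI and 54 in DMSO. With no filter on low counts both passed as lower in TBT (adjusted p = 0.0058 and 0.023) and in ROSI (0.00024 and 0.00016) than in DMSO. Abca15, Abca16 and Abcb5 also passed as lower in ROSI in that fit. Abca15 had 4 reads in TBT, 3 in ROSI and 20 in DMSO, and Abca16 had 9, 1 and 13. Abca15 and Abcb5 reached the minimum of 10 reads only with their DMSO reads. Their lower direction was therefore favoured by that minimum and is no support for a fall. Abcb5 had 6 reads in TBT, 0 in ROSI and 15 in DMSO, and 0 reads allow up to 0.13 CPM over the 4 ROSI libraries. The lysosomal peptide transporter Abcb9 had 15 reads in TBT, 20 in ROSI and 10 in DMSO. The sulfonylurea receptor Abcc9, a subunit of ATP-sensitive potassium channels, had 17 reads in TBT, 8 in ROSI and 27 in DMSO. Its pore partners Kcnj8 and Kcnj11 were too low to test. The highest of the bile transporters was Abcc2, at 1.55 ± 0.88 CPM in TBT, 1.01 ± 0.42 in ROSI and 2.47 ± 1.02 in DMSO. Abcc3, a basolateral exporter of conjugates, had 9 reads in TBT, 4 in ROSI and 13 in DMSO.

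**Figure D5:**
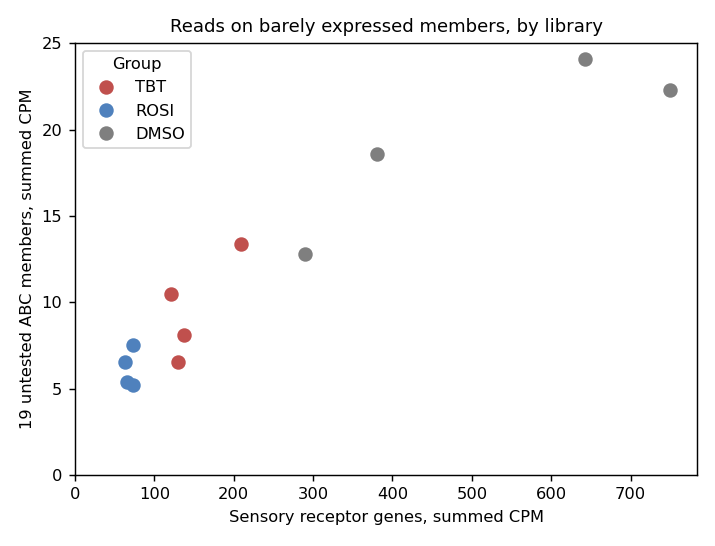
Summed level of the 19 untested members (vertical axis, CPM) against the summed level of sensory receptor genes (horizontal axis, CPM) in each library, with red points for TBT, blue for ROSI and grey for DMSO. The ROSI libraries lie lowest on the horizontal axis, at 63.4 to 73.4 CPM, and at 5.22 to 7.5 CPM on the vertical axis, where TBT replicate 4 lies among them at 6.52, and the DMSO libraries reach 24.1 and 750 CPM.

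Some ABC genes do not carry the symbols used to choose members. Tap1 had 9.65, 4.25, 14.8 and 6.74 CPM in TBT libraries, 2.51, 2.69, 4.14 and 4.61 in ROSI libraries and 14, 11.5, 5.39 and 8.53 in DMSO libraries. Tap1 and Tap2 form the transporter that brings peptides into the endoplasmic reticulum for antigen presentation. The Tap1 ROSI libraries lay below all DMSO libraries and overlapped TBT by 1 library. Tap1 fell with ROSI by 1.44 on the log2 scale (SE 0.37, edgeR adjusted p = 0.0091) and was 1.32 ± 0.38 higher in TBT than in ROSI (adjusted p = 0.019). Tap2 was at -0.70 ± 0.33 in ROSI against DMSO (adjusted p = 0.14). Of 11 genes of peptide loading, Tap1 and Tap2 included, 5 fell and 1 rose with ROSI, with Psmb8, an immunoproteasome subunit, at -2.09 ± 0.47 and B2m, the light chain of class I molecules, at -0.91 ± 0.20. TBT against DMSO called 0 higher and 1 lower of the 11, the chaperone Calr at -0.98 ± 0.22. Of the 11, ROSI against DMSO thus called 54.5% and TBT against DMSO 9.09%, against 22.6% and 15.2% of all tested genes. Cftr, the chloride channel of the family, was too low to test. For scale, the exporters left out averaged 781 CPM in TBT, 315 in ROSI and 158 in DMSO for Abca1, and 29.9 in TBT, 85.7 in ROSI and 11.3 in DMSO for Abcg1.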

How the data were processed

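RNA was depleted of ribosomal RNA and read as single 50 nt reads without strand on a SOLiD sequencer, per the labels' protocols. The authors deposited raw counts per gene symbol and, in a second table, regularized log2 values. Per the submitters' processing notes, FastQC, SAMtools and DESeq2 served with build mm9, versions not given. How reads were aligned and counted is not given in the sources. Each table has 12 columns, mapped by title. All tests used the counts; the deposited log2 values entered 1 alternative.

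Tests ran in edgeR 4.0.16 under R 4.3.3: filterByExpr with the 3 groups (12323 genes kept), TMM factors, 1 quasi-likelihood model (glmQLFit, glmQLFTest) of all 12 libraries without covariates, and Benjamini-Hochberg adjustment over all tested genes with a threshold of 0.05. Each SE was obtained from the log2 fold change and its F statistic. Alternatives used DESeq2 1.42.0, limma 3.58.1 on the deposited values, other scalings and filters, a replicate block, and leaving out each library. GC-corrected offsets and a fit without Rn45s were added after seeing the data. Intervals and floors cover counting error only. The scripts were tested on simulated data.

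The members, classes and gene lists were chosen with earlier results of these data known. Values per library were given for the cluster and for up to 6 members with the largest change in each direction past the threshold at a mean of at least 2 CPM, with a fixed set of other names and up to 3 genes per partner list by p. Neighbouring genes, Eng, Ptprc, Pecam1, Adipoq, Lpl and untested members were named after their values were seen. Positions, exon lengths and shared stretches came from GENCODE M21 on GRCm38, and promoters from RefSeq, matched by symbol for 38 of 50 family symbols. No 2 libraries of a group were copies: the lowest ratio of chi-square to degrees of freedom was 4.66. Some genes, members among them, are not reported here by name or in the plots, though the counts include them.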

Additional observations from a re-analysis of the deposited data

Results flagged for a closer look

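In 81 groups of 4 libraries checked, 4 had a library far from the other 3, and chance gives about 1 in 20. Abcb1b was at 20.4 CPM in ROSI replicate 2, against 15.0 to 15.5 in the other ROSI libraries. Abcf2 was at 47.3 CPM in DMSO replicate 2, against 51.7 to 52.2 in the other DMSO libraries. DMSO replicate 3 stood out in both cholesterol exporters, which are no members: Abca1 was at 180 CPM, against 147 to 153 in the other DMSO libraries, and Abcg1 at 33.0 CPM, against 1.90 to 5.62.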

How the results depend on the processing

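Of the comparisons' counts of called members, that of TBT against DMSO (6) depended most on the processing. At an adjusted p under 0.01 edgeR called 0, with 11 at an unadjusted p under 0.05 and 7 by DESeq2. With a replicate block it called 2, and those lost included Abcc5, Abcd3 and Abcg2 (adjusted p = 0.057, 0.051 and 0.066). Leaving out 1 library gave 2 (without DMSO replicate 1 or 2) or 3 (without TBT replicate 2 or DMSO replicate 4). It gave up to 14 without TBT replicate 4. The called share of all tested genes moved as well, from 15.2% in the main fit to 9.41% with the block. That share was 8.12% and 8.68% without DMSO replicate 1 or 2 and 9.17% without TBT replicate 2. Without DMSO replicate 4 it was 11.5%, and without TBT replicate 4 it was 32.6%. ROSI against DMSO (8) gave 13 without a filter, through members near 0 in ROSI, and 7 to 12 with 1 library left out, the highest without TBT replicate 4. Part of these counts are members that the filter admitted through the DMSO libraries, and over the 27 members tested with all libraries the last count was 9. Of all tested genes, 16.8% passed without a filter and 28% without TBT replicate 4, against 22.6% in the main fit. TBT against ROSI (8) gave 5 at an adjusted p under 0.01 and 5 (without ROSI replicate 1) to 9 with 1 library left out. In TBT against ROSI, 15% of all tested genes passed without ROSI replicate 1, against 23.9% in the main fit. The block called 7 in ROSI against DMSO and 7 in TBT against ROSI, with 18.6% and 17.5% of all tested genes. Same-numbered libraries did not deviate together (r from -0.43 to 0.14), which cannot tell whether some libraries shared a batch. By chi-square ratio, replicates 1 and 2 were closer, as were 3 and 4, in ROSI (10.5 and 5.84, against 19.9 to 31.6 across these pairs). The same held in DMSO (4.97 and 10.4, against 11.4 to 23.9), but not in TBT, where replicates 3 and 4 were at 41.5. No value changed sign past a threshold. Of 22 calls of single members, 14 of 220 checks under other settings and 55 of 264 with 1 library left out ended the call. Values not called gained a call in 11 and 15 checks. On the deposited log2 values, which are shrunken, ROSI against DMSO was at -1.54 for Abca6, -1.35 for Abca8a and -1.49 for Abca9. Depth limits the 19 members that could not be tested.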
